A study of Mus musculus with 9 samples.

Results

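The MHC class II presentation genes were followed across normal and leukaemic myeloid progenitors of the mouse. The 7 genes were taken from a list of names: H2-Aa, H2-Ab1 and H2-Eb1, which encode chains of the class II molecules, H2-DMa and H2-DMb1, Cd74, and Ciita. A gene was represented by probe sets whose only gene symbol was its own, and by the one with the highest mean over all 9 arrays. Of the 7 genes, 6 had such a probe set, out of 18194 genes with one on the arrays. H2-DMb1 had none, because its probe sets are listed jointly with its neighbour H2-DMb2. The rule that picks the 7 genes goes by their names and uses no level or difference.

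The cells were FrII cells, a progenitor fraction sorted as lineage-negative, negative for Sca-1, positive for c-Kit and low or positive for Mac1, from C57/BL6 mice aged 2 to 4 months, with blood given as the tissue. Wild type mice gave 3 arrays, leukaemic mice overexpressing the transcription factor Sox4 gave 3, and leukaemic K/L mice, which carry mutations of Cebpa on both alleles, gave 3. Cebpa encodes C/EBPα, a transcription factor of myeloid differentiation. The study set each leukaemia against the wild type. The extraction protocol gates on CD45.2 without CD45.1, a gate that the sample descriptions repeat for the leukaemic mice only, so whether wild type cells passed it is not given in the sources used here. How Sox4 was delivered, which cells expressed it and whether mice were pooled are not given there either. No statement ties the arrays to litters or separate sorts, so the p-values cover the spread from array to array, which may be technical.

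Class II molecules are heterodimers of an alpha and a beta chain that show peptides from the endosome to CD4 T cells. Cd74, the invariant chain, holds a new class II dimer and guides it to the endosome, and H2-DM, a dimer of H2-DMa with H2-DMb1 or H2-DMb2, then exchanges the last fragment of Cd74 for a peptide. H2-O, made of H2-Oa and H2-Ob, restrains H2-DM. Ciita is the coactivator without which most cells do not transcribe the classical class II genes. It binds no DNA itself and is held at their promoters by the RFX complex (Rfx5, Rfxap, Rfxank), CREB and NF-Y, which sit on the X box and the Y box. Dendritic cells, B cells and macrophages are the usual sites of expression.

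Levels below are log2 intensities of the deposited values, with the arrays given in the order 1, 2, 3, and SD over n = 3. A difference is one of group means on the log2 scale with its standard error (SE), so that 1 is a doubling. Differences were tested with limma in 1 fit of all 9 arrays, with Benjamini-Hochberg adjusted p over 12826 tested genes and a threshold of 0.05. A gene was tested if at least 3 arrays lay above the 40th percentile of their own values, which was 4.84 to 4.95. Sox4 itself read 3.84, 3.81 and 3.97 in wild type, 9.73, 9.61 and 9.87 in the Sox4 arrays and 10.87, 10.52 and 10.62 in the K/L arrays. Cebpa was higher in both leukaemias, by 0.99 ± 0.13 (SE, adjusted p = 0.000155 by limma) in Sox4 and 0.97 ± 0.13 (SE, adjusted p = 0.000168) in K/L, which does not test the K/L label because a mutated allele can be transcribed. Wild type array 3 lay over 1 log2 unit from the other wild type arrays in 400 and 495 genes, against 18 to 69 genes in all other pairs of replicate arrays. Of the gate's genes, Kit averaged 9.17, 9.18 and 9.22 in the wild type, Sox4 and K/L arrays. Ptprc (CD45) averaged 11.33, 10.83 and 10.89. It was lower in Sox4, at -0.49 ± 0.1 (SE, adjusted p = 0.00252 by limma), and in K/L, at -0.44 ± 0.1 (SE, adjusted p = 0.00484). Itgam (Mac1) averaged 4.91, 4.2 and 3.83, lay above the 40th percentile on fewer than 3 arrays and was not tested. Ly6a (Sca-1) had no probe set of its own.

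The promoters of the class II genes are shown because the X box, bound by RFX, and the Y box, bound by NF-Y, are what the family shares at the level of sequence. RefSeq windows of 300 bases (250 before to 50 after the transcription start, build GRCm38.p6) were at hand for 4 of the 7 genes, H2-Aa, H2-DMa, H2-DMb1 and H2-Eb1, and for H2-Oa and H2-Ob. In the stretches below, written 5′ to 3′ on the strand of the gene, capitals mark the first 5 letters of the X box core (GCAAC) and the CCAAT-type core of the Y box (ATTGG):
H2-Eb1, chr17:34305761-34305827, plus strand: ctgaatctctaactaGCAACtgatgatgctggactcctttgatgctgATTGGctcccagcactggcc
H2-Aa, chr17:34287852-34287919, minus strand: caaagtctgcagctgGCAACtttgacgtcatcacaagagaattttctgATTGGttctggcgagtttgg
H2-Oa, chr17:34092288-34092355, plus strand: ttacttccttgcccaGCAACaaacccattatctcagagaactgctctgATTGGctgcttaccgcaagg
H2-Ob, chr17:34238803-34238867, plus strand: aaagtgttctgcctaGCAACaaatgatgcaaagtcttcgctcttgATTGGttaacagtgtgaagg

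The first letters of GCAAC and ATTGG lay 32 bases apart in H2-Eb1, 33 in H2-Aa, 33 in H2-Oa and 30 in H2-Ob. On the gene's strand a GCAAC followed by an ATTGG at 28 to 36 bases stood in 69 of 32851 such windows of the mouse genome, or 0.21 percent, a search that was chosen after these promoters had been read. The longer Y box core CTGATTGG, sought on both strands and always holding an ATTGG, was found in H2-Aa, H2-Eb1 and H2-Oa and in 4.1 percent of all windows. The longer X box core GCAACNGAT was found among these genes in H2-Eb1 only and in 0.414 percent of all windows. Both longer cores stood together in 10 windows, 0.0304 percent, which belong to 8 genes that include H2-Eb1 and H2-Eb2. H2-DMa has 2 windows, with none of the longer cores and 1 ATTGG in the second, and H2-DMb1 has 1 ATTGG. These are exact matches of letters, not measured sites. The H2-DMb1 window holds, ahead of its Y box letters, a stretch that differs by 1 letter from the X box of H2-Eb1. Such near matches were not sought, so the searches do not show that H2-DMa or H2-DMb1 lacks an X box.

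Of the 5 tested genes, 4 were higher in Sox4 than in wild type (H2-DMa, H2-Ab1, H2-Aa, Cd74) and 3 were higher in K/L than in wild type (H2-DMa, H2-Ab1, H2-Eb1), and none was lower. Over all tested genes, 26.7 percent were called higher in Sox4 and 29.0 percent in K/L, and 21.1 and 21.6 percent lower. These comparisons share the wild type arrays, and in bulk RNA fewer cells of a type and less RNA per cell cannot be told apart. Between the leukaemias, H2-DMa and H2-Ab1 were lower in K/L than in Sox4, where 14.0 percent of all tested genes were called lower and 14.9 percent higher. With each array centred on its median, that background became 1456 genes lower and 2546 higher, from 1797 and 1905, and the same 2 members were lower. H2-Aa passed the filter through the leukaemic arrays alone, since 0 of its 3 wild type arrays lay above the 40th percentile. H2-Ab1, with 2 wild type arrays above it, and Cd74, with 1, also needed leukaemic arrays to reach the 3 required. Ciita was not tested, and H2-DMb1 had no value of its own.

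**Figure D1:**
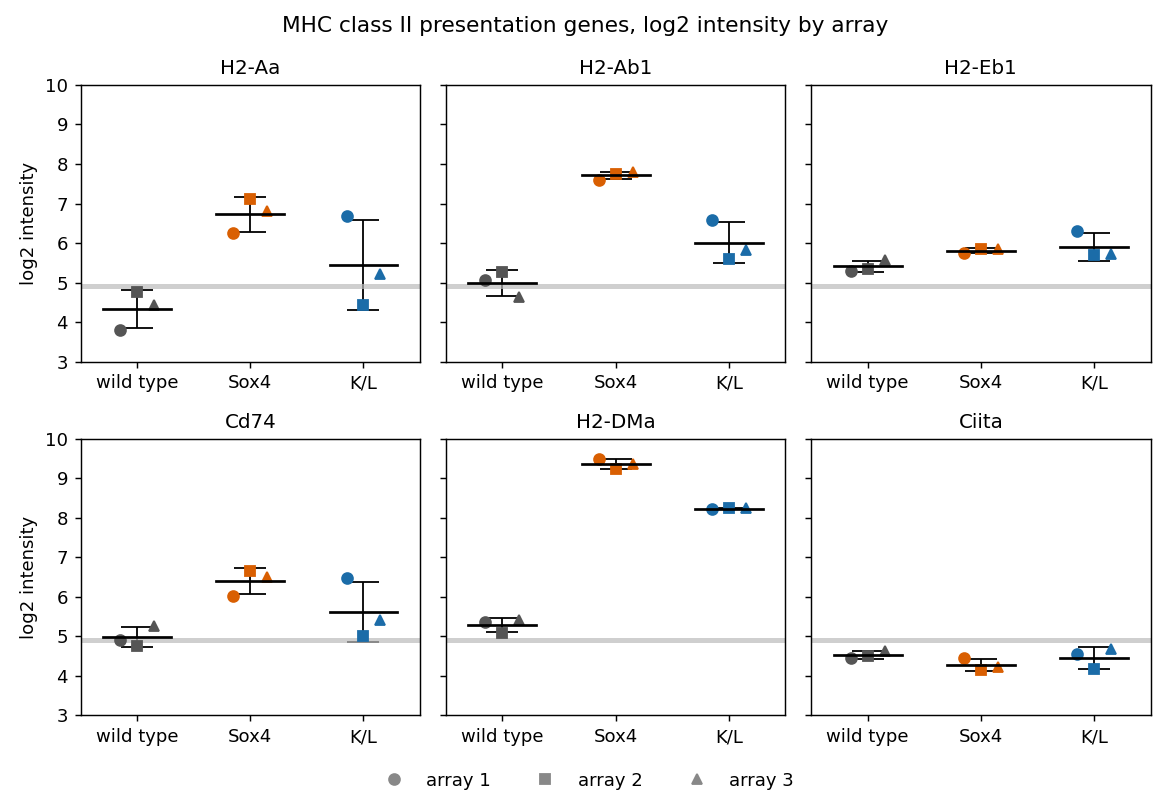
Log2 intensity (y axis) of the 6 genes with a probe set of their own on each array, by group (x axis). Points are arrays 1, 2 and 3 (circle, square, triangle), the long bar is the group mean, the short bars are ± SD, and the grey band is the range of the arrays' 40th percentiles, 4.84 to 4.95. H2-DMa and H2-Ab1 form separate levels in all 3 groups, K/L array 1 (blue circle) stands above the other K/L arrays in H2-Aa, H2-Ab1, H2-Eb1 and Cd74, and Ciita lies under the band throughout.

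H2-DMa, the alpha chain of the peptide exchange factor, had the largest differences from wild type of the 5 tested genes. It read 5.36, 5.08 and 5.42 in wild type, 9.48, 9.22 and 9.35 in Sox4, and 8.21, 8.24 and 8.25 in K/L. The groups formed separate levels without overlap, with means of 5.29 ± 0.18, 9.35 ± 0.13 and 8.23 ± 0.02 (SD), and the K/L arrays spanned only 0.03. The difference from wild type was 4.06 ± 0.11 (SE, 16.7-fold, adjusted p = 1.21e-08 by limma) in Sox4. It was 2.95 ± 0.11 (SE, 7.71-fold, adjusted p = 5.15e-08) in K/L. K/L lay below Sox4, at -1.12 ± 0.11 (SE, adjusted p = 6.07e-05). The second probe set of H2-DMa ordered the groups alike with smaller differences, 1.75 in Sox4 and 0.88 in K/L against wild type, and the mean of both probe sets put the K/L difference at 1.91.

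The partner of H2-DMa in the dimer could not be read for 1 gene alone. Both probe sets of H2-DMb1 are listed for H2-DMb1 together with H2-DMb2, and these genes lie side by side on chromosome 17. One of the shared probe sets read 6.06, 5.94 and 5.6 in wild type, 7.72, 7.47 and 7.31 in Sox4, and 7.53, 6.9 and 7.28 in K/L. The other gave 6.76, 6.7 and 6.2 in wild type, 8.1, 8.01 and 8.01 in Sox4, and 7.36, 7.72 and 7.96 in K/L. In both probe sets all leukaemic arrays lay above all wild type arrays, and the signal cannot be divided between the genes. Of the 3 probe sets of H2-DMb2 alone, the one used read 6.25, 5.82 and 6.61 in wild type, 6.78, 6.81 and 6.99 in Sox4, and 6.79, 6.71 and 7.48 in K/L. H2-DMb2 was higher by 0.64 ± 0.23 (SE, adjusted p = 0.045 by limma) in Sox4 and by 0.77 ± 0.23 (SE, adjusted p = 0.0193) in K/L. The Sox4 call was lost without wild type array 2 (0.43, adjusted p = 0.152) and under several other alternatives, and the K/L call without wild type array 2 (0.56, adjusted p = 0.0682) or K/L array 3 (0.53, adjusted p = 0.0654).

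H2-Ab1, the beta chain of the I-A molecule, read 5.06, 5.26 and 4.64 in wild type, 7.6, 7.74 and 7.79 in Sox4, and 6.59, 5.6 and 5.83 in K/L. All 3 groups were separate, with the Sox4 arrays close together and K/L array 1 above the other K/L arrays. The means were 4.99 ± 0.32, 7.71 ± 0.10 and 6.01 ± 0.52 (SD). The difference from wild type was 2.73 ± 0.24 (SE, 6.61-fold, adjusted p = 1.29e-05 by limma) in Sox4. In K/L it was 1.02 ± 0.24 (SE, 2.03-fold, adjusted p = 0.0057). K/L lay below Sox4 by a difference of -1.71 ± 0.24 (SE, adjusted p = 0.000509). The other 2 probe sets of H2-Ab1 gave the same order of groups without overlap, with differences of 0.97 and 1.86 in Sox4 and 0.25 and 0.84 in K/L against wild type.

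H2-Aa, the alpha chain that pairs with H2-Ab1 and whose promoter is shown above, read 3.81, 4.76 and 4.43 in wild type, 6.26, 7.12 and 6.82 in Sox4, and 6.68, 4.44 and 5.21 in K/L. The Sox4 arrays lay above all wild type arrays, while the K/L arrays ran from the wild type level up to the Sox4 level. The difference from wild type was 2.40 ± 0.49 (SE, adjusted p = 0.00277 by limma) in Sox4, against wild type values that all lay below the 40th percentile, so that its size rests on dim signal and its entry into the test on the leukaemic arrays. In K/L it was 1.11 ± 0.49 (SE) and did not pass the test (adjusted p = 0.0865), nor did K/L against Sox4, at -1.29 ± 0.49 (SE, adjusted p = 0.0795). The probe set used is of a type (suffix _x_at) that can bind related sequences. With the probe set of another type in its place, the Sox4 difference was 0.99 (adjusted p = 0.0158) and the K/L difference, now past the threshold, was 0.77 (adjusted p = 0.046), with K/L against Sox4 at -0.23 (adjusted p = 0.611). Another probe set of H2-Aa stood at 3.0, the floor of the table, on all 9 arrays.

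H2-Eb1, the beta chain of the I-E molecule, carries both longer promoter cores and moved least of the 5 tested genes. It read 5.3, 5.35 and 5.58 in wild type, 5.74, 5.84 and 5.85 in Sox4, and 6.31, 5.69 and 5.72 in K/L. All leukaemic arrays lay above all wild type arrays by a narrow margin. The K/L difference was 0.49 ± 0.16 (SE, 1.41-fold, adjusted p = 0.0283 by limma). The Sox4 difference was 0.39 ± 0.16 (SE, 1.31-fold) and did not pass (adjusted p = 0.0712), and K/L against Sox4 was 0.10 ± 0.16 (SE, adjusted p = 0.706). These calls lay near the threshold. The K/L call was lost without K/L array 1 (0.29, adjusted p = 0.0776), wild type array 1 (0.44, adjusted p = 0.0861) or wild type array 2 (0.46, adjusted p = 0.0732), and the Sox4 difference passed without wild type array 3 (0.48, adjusted p = 0.0467) or K/L array 1 (0.39, adjusted p = 0.0156). The alpha chain that would pair with H2-Eb1, H2-Ea, is known to be defective in the C57/BL6 strain. Of its 3 probe sets, the one used averaged 6.62, 6.40 and 6.68 in the wild type, Sox4 and K/L arrays. No difference passed the threshold (adjusted p of 0.48 and 0.86 against wild type by limma). These means lay above those of H2-Eb1, at 5.41, 5.81 and 5.91. Whether such signal is specific to the gene was not tested.

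Cd74, the invariant chain, which lies on chromosome 18 away from the class II region, read 4.9, 4.76 and 5.27 in wild type, 6.01, 6.65 and 6.5 in Sox4, and 6.47, 5.0 and 5.4 in K/L. The Sox4 arrays lay above all wild type arrays, and the K/L arrays overlapped both groups. The Sox4 difference was 1.41 ± 0.33 (SE, 2.66-fold, adjusted p = 0.00597 by limma). The K/L difference of 0.64 ± 0.33 (SE, adjusted p = 0.135) and the difference of -0.77 ± 0.33 (SE, adjusted p = 0.118) between K/L and Sox4 did not pass.

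Ciita, the coactivator, stayed below the 40th percentile on all 9 arrays. It read 4.44, 4.49 and 4.63 in wild type, 4.44, 4.15 and 4.23 in Sox4, and 4.54, 4.16 and 4.69 in K/L. The K/L arrays overlapped the wild type, and the Sox4 arrays lay at or just under its lowest value. Its other 2 probe sets were as dim, with group means of 4.34 to 4.44 and 4.08 to 4.35. Without the filter on dim genes, no difference of Ciita passed the test: -0.25 (adjusted p = 0.24) in Sox4 and -0.06 (adjusted p = 0.818) in K/L against wild type. The SE of these differences was 0.14. No change of Ciita was detected, which at signals this dim does not show that there was none.

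**Figure D2:**
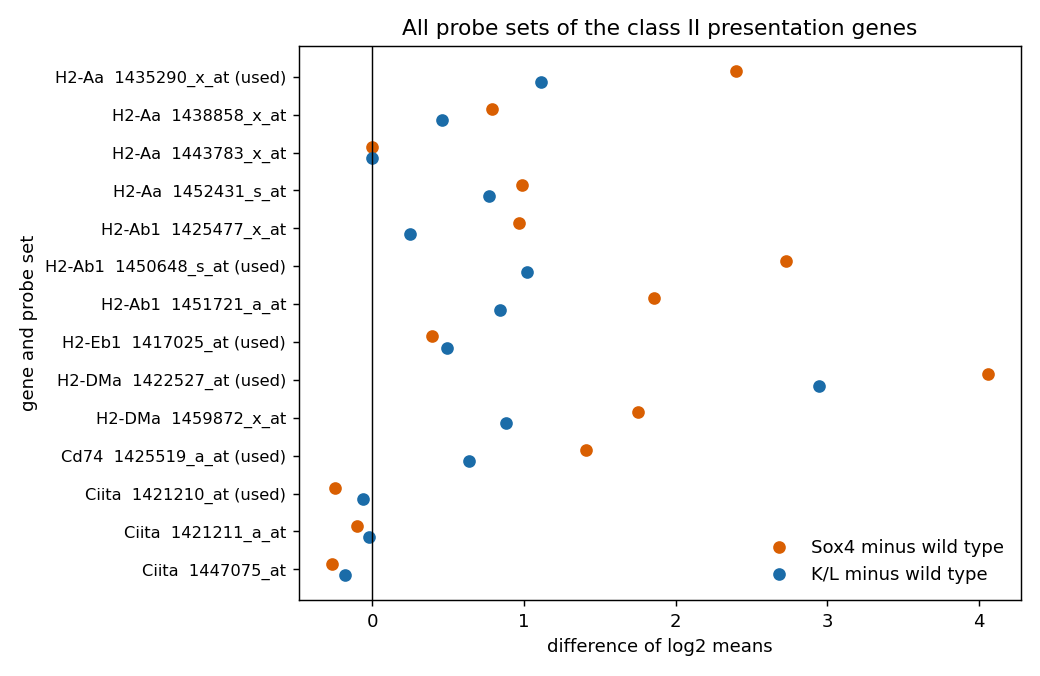
Difference of log2 means from wild type (x axis) for every probe set of the 6 genes (y axis, with the probe set used marked), in Sox4 (orange) and K/L (blue). All probe sets of H2-DMa and H2-Ab1 lie to the right of 0, the size differs between probe sets of 1 gene, and 1 probe set of H2-Aa sits at 0 because all its values are at the floor.

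By group means the order was wild type, K/L, Sox4 in H2-DMa, H2-Ab1, H2-Aa and Cd74, and wild type, Sox4, K/L in H2-Eb1. Every step of that order passed the test in H2-DMa and H2-Ab1. In H2-Aa and Cd74 only the span from wild type to Sox4 passed and K/L differed from neither neighbour at the threshold, and in H2-Eb1 the leukaemias did not differ at it. The spread within a group was uneven. The highest and lowest arrays lay 0.11 to 0.87 apart within Sox4 over the 5 tested genes and 0.28 to 0.95 apart within wild type. Within K/L they lay 0.03 apart in H2-DMa, 0.62 in H2-Eb1, 0.99 in H2-Ab1, 1.48 in Cd74 and 2.24 in H2-Aa.

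K/L array 1 stood above the other K/L arrays in the class II chains and Cd74. Only 8 of 12826 tested genes, 0.0624 percent, lay at least 1 log2 unit above both other K/L arrays on that array, and H2-Aa (1.47 above the higher of them, rank 4) and Cd74 (1.07, rank 7) were among these 8. H2-Ab1 (0.75, rank 26) and H2-Eb1 (0.59, rank 62) were also high there, whereas H2-DMa (-0.03, rank 5046), H2-Oa (-0.31) and H2-Ob (-0.08) were not. The other genes of the 8 were Egr1 (1.76), an immediate-early transcription factor, Npy (1.54), a neuropeptide, Laptm4b (1.3), Marcks (1.28) and 2 uncharacterised transcripts. The genes were found by this ranking, so it is a description of 1 array. The summed intensity of 9 B cell markers was 1209 on that array against 1177 and 1316 on the other K/L arrays, that of 10 dendritic cell markers 773 against 680 and 752, and that of 9 macrophage markers 2546 against 2180 and 2557. Such sums follow their brightest genes most, and the part of these markers in the class II values of this array was not tested.

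Without K/L array 1, the distance of K/L from Sox4 widened. H2-Aa then lay below Sox4 by a difference of -1.91 (adjusted p = 0.00431 by limma) and Cd74 by -1.19 (adjusted p = 0.00564), so that 4 members were lower in K/L than in Sox4. Against wild type, K/L then stood at 0.49 in H2-Aa (adjusted p = 0.283) and 0.22 in Cd74 (adjusted p = 0.468), while H2-Ab1 stayed past the threshold at 0.73 (adjusted p = 0.011). Without K/L array 2, the lowest of the K/L arrays in these genes, H2-Aa (1.61, adjusted p = 0.0163) and Cd74 (0.96, adjusted p = 0.0344) passed against wild type, and all 5 tested members were then higher in K/L.

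The other genes of the class II pathway went both ways. The list held 32 genes, of which 31 had a probe set and 27 were tested. In Sox4 7 were higher and 7 lower than in wild type, 25.9 percent each, beside 26.7 and 21.1 percent of all tested genes. In K/L 10 were higher and 6 lower, 37.0 and 22.2 percent, beside 29.0 and 21.6 percent. The median differences were -0.04 in Sox4 and 0.19 in K/L, and those over all tested genes 0.03 and 0.06. Apart from the higher calls in K/L these shares lay near the background, so the counts say little of the list as a whole. Between K/L and Sox4, 4 were higher (Ifi30, Marchf8, Icosl, Rfxank) and 2 lower (Irf8, Ctsb), 14.8 and 7.41 percent beside 14.9 and 14.0 percent, which became 8 and 2 with centred arrays and 8 and 3 without wild type array 3.

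Both chains of H2-O rose in both leukaemias. H2-Oa read 4.58, 4.94 and 5.39 in wild type, 6.96, 7.1 and 7.18 in Sox4, and 7.6, 7.43 and 7.91 in K/L. It was higher than in wild type by 2.11 ± 0.20 (SE, adjusted p = 1.83e-05 by limma) in Sox4 and 2.68 ± 0.20 (SE, adjusted p = 3.59e-06) in K/L. Here K/L was the higher leukaemia on every array, the reverse of H2-DMa, H2-Ab1 and the Sox4 means of H2-Aa and Cd74, although the difference of 0.57 ± 0.20 (SE) missed the threshold (adjusted p = 0.0551) and passed it in 8 of the alternatives. H2-Ob read 3.31, 3.13 and 3.66 in wild type, 5.56, 5.9 and 5.23 in Sox4, and 5.73, 4.74 and 5.81 in K/L. Its differences from wild type were 2.20 ± 0.28 (SE, adjusted p = 0.000151) in Sox4 and 2.06 ± 0.28 (SE, adjusted p = 0.000221) in K/L. None of its wild type arrays lay above the 40th percentile, so that H2-Ob entered the test through the leukaemic arrays. H2-Oa, with 1 wild type array above it, needed leukaemic arrays as well.

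Among the endosomal enzymes, cathepsin S (Ctss), which trims the invariant chain, went from 4.48, 4.46 and 3.48 in wild type to 10.23, 10.23 and 10.08 in Sox4 and 10.17, 9.83 and 10.2 in K/L. The differences were 6.04 ± 0.24 (SE, adjusted p = 7.16e-08 by limma) and 5.93 ± 0.24 (SE, adjusted p = 6.44e-08), and its wild type arrays were all below the 40th percentile. Ifi30 (GILT), the thiol reductase that opens disulfide bonds of antigens, read 5.62, 5.49 and 4.78 in wild type, 7.92, 8.03 and 7.91 in Sox4 and 8.79, 8.8 and 8.87 in K/L. The 3 groups were separate, with K/L above Sox4 by 0.87 ± 0.19 (SE, adjusted p = 0.00665). The other listed enzymes did not move together. Ctsl was lower, at -0.57 ± 0.15 (SE, adjusted p = 0.01) in Sox4 and -0.9 ± 0.15 (SE, adjusted p = 0.000712) in K/L. Ctsb was higher in Sox4 by 1.27 ± 0.12 (SE, adjusted p = 1.68e-05). Its K/L call, at 0.4 ± 0.12 (SE, adjusted p = 0.017), was lost in 2 of the alternatives. Ctsd was higher in K/L only, by 0.62 ± 0.13 (SE, adjusted p = 0.00319), and Lgmn was not tested.

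The listed factors of the X and Y boxes moved by less than 1 log2 unit. Rfx5, the DNA-binding subunit of RFX, read 7.83, 8.18 and 7.73 in wild type, 8.28, 8.19 and 8.03 in Sox4, and 8.18, 8.11 and 8.21 in K/L, and its difference of 0.25 ± 0.13 (SE) in each leukaemia missed the threshold (adjusted p = 0.129 by limma for both), passing it without wild type array 2 at 0.39 in Sox4 and 0.38 in K/L, and in K/L also with centred arrays. Rfxap, another subunit, was higher in K/L by 0.64 ± 0.14 (SE, adjusted p = 0.00405), with a Sox4 difference of 0.22 ± 0.14 (SE, adjusted p = 0.233) that passed without wild type array 2 at 0.37. Rfxank, the last subunit, differed from wild type by -0.13 ± 0.13 (SE, adjusted p = 0.467) in Sox4 and 0.30 ± 0.13 (SE, adjusted p = 0.0858) in K/L, a K/L difference that passed in 4 of the alternatives, at 0.30 to 0.42. K/L lay above Sox4 in Rfxank by 0.43 ± 0.13 (SE, adjusted p = 0.0372), a call lost in 8 of the alternatives. Of the NF-Y subunits Nfyb was lower in both, at -0.88 ± 0.10 (SE, adjusted p = 7.78e-05) in Sox4 and -0.68 ± 0.10 (SE, adjusted p = 0.000393) in K/L. Creb1 was lower as well, at -0.45 ± 0.10 (SE, adjusted p = 0.0041) and -0.61 ± 0.10 (SE, adjusted p = 0.000689), the former -0.29 with the mean of all its probe sets. H2-DMb2, Ctsl, Ctsd, Lgmn, Nfyb, Creb1 and Ifngr1 were picked for mention after their values were seen.

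Of the transcription factors that act on Ciita or on class II genes in myeloid cells, Irf8, a regulator of monocyte and dendritic cell fate, differed most. It read 7.38, 7.33 and 5.54 in wild type, 10.69, 10.8 and 10.86 in Sox4, and 8.02, 8.14 and 8.54 in K/L. The groups did not overlap, and wild type array 3 lay well under the other wild type arrays. Irf8 was higher by 4.03 ± 0.41 (SE, adjusted p = 3.34e-05 by limma) in Sox4 and by 1.49 ± 0.41 (SE, adjusted p = 0.0127) in K/L, which was 0.88 (adjusted p = 0.00106) without wild type array 3. K/L lay below Sox4 by a difference of -2.55 ± 0.41 (SE, adjusted p = 0.00118). In wild type, Sox4 and K/L arrays, Spi1 (PU.1) averaged 8.14, 8.09 and 8.04 and Irf1, a factor induced by interferon gamma, 8.74, 8.70 and 8.94. Neither passed in any of the 3 comparisons. Irf1 passed in K/L without wild type array 2 (0.33, adjusted p = 0.0381), and between the leukaemias when those groups were fitted alone (0.24, adjusted p = 0.0332). Both chains of the interferon gamma receptor were lower in the leukaemias, Ifngr1 at -0.70 ± 0.10 (SE, adjusted p = 0.000327) in Sox4 and -0.54 ± 0.10 (SE, adjusted p = 0.00153) in K/L. Ifngr2 stood at -0.75 ± 0.11 (SE, adjusted p = 0.000464) in Sox4, which was -0.47 with the mean of all its probe sets, and -1.03 ± 0.11 (SE, adjusted p = 5.8e-05) in K/L.

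**Figure D3:**
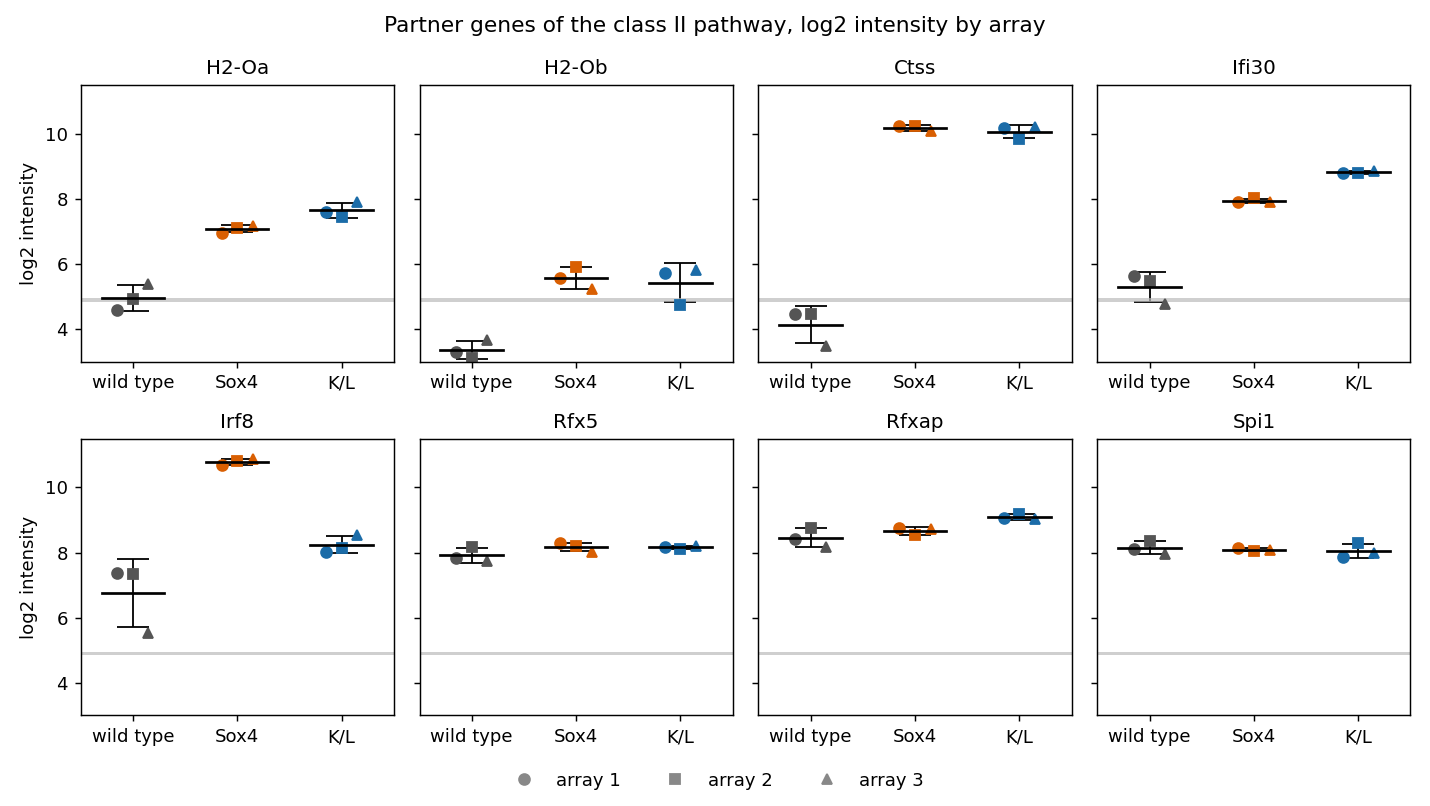
Log2 intensity (y axis) of 8 partner genes of the class II pathway on each array, by group (x axis). Points are arrays 1, 2 and 3 (circle, square, triangle), the long bar is the group mean, the short bars are ± SD and the grey band is the range of the arrays' 40th percentiles. H2-Oa, H2-Ob, Ctss and Ifi30 are higher in both leukaemias, Irf8 is highest in Sox4 with wild type array 3 at 5.54, and the groups of Rfx5 and Spi1 overlap.

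Outside loading and transcription, Marchf1, a ubiquitin ligase that removes class II molecules from the surface, was lower in K/L, at -1.16 ± 0.24 (SE, adjusted p = 0.00293 by limma), which shrank to -0.52 (adjusted p = 0.00676) with the mean of all its probe sets. In Sox4 it stood at -0.72 ± 0.24 (SE, adjusted p = 0.0318), a call lost without wild type array 1 or 2 or Sox4 array 1 or 2 (adjusted p of 0.069 to 0.107), with the mean of all its probe sets and without the filter on dim genes.

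The class II region of chromosome 17 also holds genes that serve class I presentation. In map order the protein-coding genes from H2-Oa to H2-Eb2 are H2-Oa, Brd2, H2-DMa, H2-DMb2, H2-DMb1, Psmb9, Tap1, Psmb8, Tap2, H2-Ob, H2-Ab1, H2-Aa, H2-Eb1 and H2-Eb2. Of these 14 genes 13 were tested, and 11 were higher in Sox4 and 11 in K/L, with 0 lower in either. In Sox4 the remaining ones were H2-Eb1 and H2-Eb2, and in K/L they were H2-Aa and H2-Eb2. Over all tested genes, 26.7 percent were called higher in Sox4 and 29.0 percent in K/L, and 21.1 and 21.6 percent lower. Between K/L and Sox4, 0 genes of the region were higher and 2 lower, beside 14.9 and 14.0 percent of all tested genes. The region was chosen after its values were seen, so these counts are a description. H2-Eb2, whose promoter holds both longer cores as that of H2-Eb1 does, averaged 5.11, 5.21 and 5.31 in the wild type, Sox4 and K/L arrays. Its K/L difference of 0.19 ± 0.09 (SE, adjusted p = 0.103 by limma) passed with centred arrays (0.29, adjusted p = 0.0223) or quantile normalization (0.28, adjusted p = 0.0257).

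**Figure D4:**
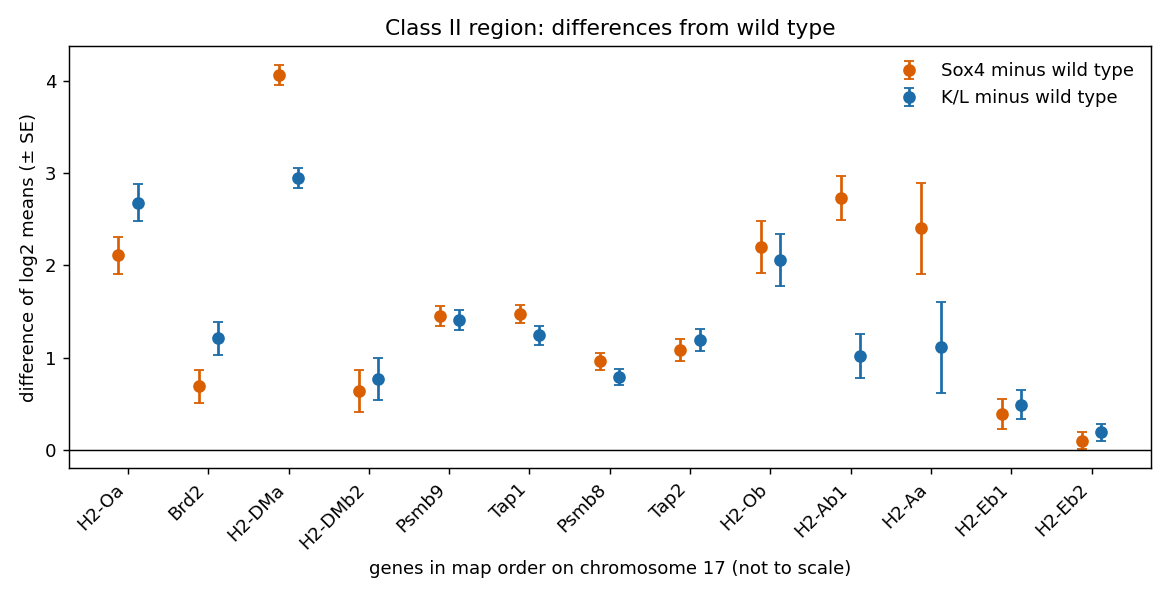
Difference of log2 means from wild type (y axis) with its SE (error bars) for the 13 tested genes of the class II region, in map order on chromosome 17 and not to scale (x axis), in Sox4 (orange) and K/L (blue). H2-DMa, at 4.06 and 2.95, stands highest, H2-Oa and H2-Ob lie between 2.06 and 2.68, and H2-Eb1 and H2-Eb2 lie nearest to 0.

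The class I presentation list was called in 1 direction against wild type in the comparison as reported. Of 17 listed genes 16 were tested, and 13 were higher in Sox4 and 9 in K/L, with 0 lower, and medians of 1.02 and 0.68. These were 81.2 and 56.2 percent of the tested list, beside 26.7 and 29.0 percent of all tested genes. Psmb8, Psmb9, Tap1 and Tap2 are also among the genes of the class II region, so the 2 counts overlap. The Sox4 count ran from 10 to 13 higher over the alternatives, with 0 lower. The K/L count ran from 8 to 12 higher over the alternatives, with 12 for centred arrays, and 1 gene was called lower without wild type array 2 (Nlrc5, the class I counterpart of Ciita, at -1.41, adjusted p = 0.0293 by limma) and 1 with an intensity trend and robust variances. Between K/L and Sox4, 1 was higher and 2 lower, which became 1 and 1 with centred arrays and 2 and 4 without wild type array 3. With all arrays, Nlrc5 was higher in Sox4 by 1.62 ± 0.46 (SE, adjusted p = 0.0159), a call lost in 3 of the alternatives. Its K/L difference of -0.99 ± 0.46 (SE, adjusted p = 0.103) did not pass. K/L lay below Sox4 in Nlrc5, at -2.61 ± 0.46 (SE, adjusted p = 0.00219). Of 14 listed genes of the interferon gamma response and its receptor, 11 were tested, with 4 higher and 2 lower in Sox4 (36.4 and 18.2 percent). In K/L 3 were higher and 3 lower (27.3 percent each). Over all tested genes, 26.7 and 29.0 percent were higher in Sox4 and K/L, and 21.1 and 21.6 percent lower. Gbp2, Ifi47 and Igtp were higher in both leukaemias and Gbp3 in Sox4 only. The receptor chains Ifngr1 and Ifngr2 were lower in both, and Cxcl10 in K/L only. The K/L count became 5 higher and 2 lower with centred arrays and 5 and 3 with quantile normalization. It was 4 and 4 without wild type array 3, where Gbp3 was lower in K/L (-0.89, adjusted p = 0.00195 by limma).

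Markers of the cells that usually express class II moved with the leukaemias in part. Of 10 B cell markers 9 had a probe set, and their summed linear intensity was 442 to 613 in wild type, 1162 to 1331 in Sox4 and 1177 to 1316 in K/L. Of these, Ms4a1, Ebf1, Cd22, Blk and Blnk lay below the 40th percentile on all arrays. Ighm, the immunoglobulin heavy chain, was higher by 1.57 ± 0.19 (SE, adjusted p = 9.33e-05 by limma) in Sox4 and 1.66 ± 0.19 (SE, adjusted p = 6.19e-05) in K/L, but by only 0.21 (adjusted p = 0.0729) and 0.30 (adjusted p = 0.0145) with the mean of all its probe sets. Cd79b, a chain of the B cell receptor, was higher in both leukaemias, by 1.90 ± 0.11 and 1.38 ± 0.11 (SE). Its partner Cd79a was called both ways, lower in Sox4 at -0.63 ± 0.21 (SE, adjusted p = 0.0323, lost in several alternatives) and higher in K/L by 1.10 ± 0.21 (SE, adjusted p = 0.0018). All its Sox4 arrays (4.26, 4.79 and 3.99) and wild type array 2 (4.77) lay below the 40th percentile. Cd79a thus entered the test through K/L arrays, and its Sox4 call rests on dim signal. Pax5 was not called in either.

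The sum over 10 of 11 dendritic cell markers was 630 to 754 in wild type, 1361 to 1617 in Sox4 and 680 to 773 in K/L, with Xcr1, Cd209a and Ccr7 below the 40th percentile on all arrays. Tcf4, a factor of plasmacytoid dendritic cells, was lower in K/L at -3.67 ± 0.16 (SE, adjusted p = 1.26e-07 by limma) and higher in Sox4 by 1.15 ± 0.16 (SE, adjusted p = 0.000296). Flt3 was higher in Sox4 by 3.24 ± 0.20 (SE, adjusted p = 1.09e-06) and Itgax in K/L by 2.36 ± 0.20 (SE, adjusted p = 1.01e-05), so the markers of this list did not move together. The sum over 9 of 10 macrophage markers was 1413 to 1482 in wild type, 4130 to 4511 in Sox4 and 2180 to 2557 in K/L, with C1qa, C1qb and Marco below the 40th percentile on all arrays. The brightest of the 9 in the leukaemias were Csf1r, with means of 11.22 in Sox4 and 9.49 in K/L, and Mpeg1, with 10.49 and 9.7. Csf1r was higher in Sox4 by 1.62 ± 0.10 (SE, adjusted p = 9.08e-07), and Mpeg1 was higher by 3.24 ± 0.11 in Sox4 and 2.44 ± 0.11 (SE) in K/L. Adgre1, a macrophage surface receptor, was lower, at -3.22 ± 0.13 (SE, adjusted p = 8.96e-08) in Sox4 and -0.41 ± 0.13 (SE, adjusted p = 0.0264, lost in several alternatives) in K/L. For 6 of 8 T and NK cell markers the sum was 183 to 189, 195 to 199 and 194 to 215. The ratio of the 3′ to the 5′ control probe sets of Gapdh, a sign of RNA integrity, was 2.68 to 2.91 in wild type, 2.22 to 2.44 in Sox4 and 1.93 to 2.0 in K/L. The same ratio for beta-actin overlapped between groups, at 0.885 to 0.976, 0.881 to 0.915 and 0.866 to 0.913. The part of these markers and of RNA quality in the class II differences was not tested.

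The genes with the most similar profiles were found by the root mean square difference over the 9 arrays after each gene was centred on its own mean, among 12825 other tested genes. H2-Ab1 (0.46) was nearest to H2-Aa, followed by Ehbp1 (0.48) and Cd74 (0.52), whereas H2-DMa (1.07) ranked 3252 there. Nearest to H2-Ab1 were Rasa4 and Atg9b (0.24 each) and Sec24d (0.28), with H2-Aa at rank 39. Cdkn2c (0.25), Cd163 (0.26) and Prdx4 (0.27) were nearest to H2-DMa, and Anpep, Ccl5 and Rras (0.35 each) to Cd74. H2-Eb1, with its small range, was nearest to Dph2 (0.11), 1700008J07Rik and Ppp3r1 (0.12 each).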

How the data were processed

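RNA of 9 samples was hybridised to Affymetrix mouse arrays. The deposited table holds linear intensity values of 45101 probe sets, none below 8. The submitters' processing notes name RMA, with version and later steps not given in the sources used here. Values were taken to log2 without further scaling. Gene names came from the platform's 2016 annotation (34958 with 1 symbol, 932 with several, 9211 with none; the last groups were left out), and 34754 symbols were checked through gene IDs in a RefSeq table of GRCm38.p6, with 0 changed. The array files name no build. Each of 18194 genes was represented by its probe set of highest mean; for the 7 members this included _x_at probe sets, for other genes only where no other existed.

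limma 3.58.1 in R 4.3.3 (lmFit, eBayes) fitted 3 groups with 6 residual and 3.71 prior degrees of freedom. The procedure was tested on simulated data. The number of arrays limits the precision. With 3 against 3 arrays, a two-sided permutation test cannot give a p below 0.1, so none was run. Alternatives changed the scaling, the filter (a stricter one needs 6 arrays), the probe set rule, the variance model and the arrays used. Named were all members, the regulators Rfx5, Rfxap, Rfxank, Spi1, Irf1 and Irf8, H2-Ea, and the 3 genes of most similar profile per member. List genes past the threshold that differed by at least 1 log2 unit could be named, and not all of them are. Markers and further genes were added after their values were seen. The members and lists were chosen with earlier results of these data known.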

Additional observations from a re-analysis of the deposited data

Results flagged for a closer look

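The 2 probe sets listed jointly for H2-DMb2 and H2-DMb1 stand outside the comparisons above, because a probe set with several symbols represented no gene, and both gave higher signal in the leukaemic arrays than in the wild type controls. The first differed from wild type by 1.37 in K/L and by 1.64 in Sox4 on the log2 scale, and the second by 1.13 in K/L and 1.49 in Sox4, with no overlap of the groups. K/L and Sox4 differed by -0.27 in the first, where their arrays overlapped, and by -0.36 in the second, where they did not. The probe set used for H2-DMb2 alone differed from wild type by 0.77 in K/L and 0.64 in Sox4. These jointly listed probe sets were not tested with the other genes.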

How the results depend on the processing

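Of 267 values of the 5 tested members over 18 alternatives, 252 kept their direction and side of the threshold, 5 lost a call, 9 gained one, 1 moved and 0 reversed a call. H2-DMa and H2-Ab1 kept all 3 calls in each alternative that was run. Leaving out 1 array at a time, 2 to 5 members were called for K/L against wild type, with 5 without K/L array 2, and 2 to 4 for K/L against Sox4, with 4 without K/L array 1. Members called for K/L against wild type, 3 in the comparison as reported, fell to 2 without the filter on dim genes and with only the groups compared and rose to 4 with averaged probe sets and with _x_at probe sets used only where no other existed. Members called for Sox4 against wild type, 4 of 5 in the comparison as reported, were 3 of 4 with the stricter filter, which H2-Aa did not pass. All 5 were called there with only the groups compared and without wild type array 3 or K/L array 1. The K/L against Sox4 difference of H2-Eb1 moved from 0.10 to -0.10 without K/L array 1. Partner genes called for K/L against Sox4, 6 as reported, became 10 with centred arrays, 10 with quantile normalization, 10 with all probe sets of a gene averaged, 12 with only the groups compared, and 5 to 11 with 1 array left out. The causes were not tested.

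Arrays of the same number share only a number, since their deviations from the group means correlated between -0.0251 and 0.0809. With the replicate number as a block, the members called stayed at 4 in Sox4 and 3 in K/L against wild type and 2 in K/L against Sox4, and calls over all genes went from 6489 to 6369 in K/L against wild type. Signal near the lower end of the arrays limits Ciita, H2-Aa, H2-Ob and Ctss in wild type. H2-Ab1, Cd74, H2-Oa, Ifi30 and Cd79a also had fewer than 3 wild type arrays above the 40th percentile.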
